A study of Mus musculus with 6 samples.

Results

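The TNF superfamily, the TRAF adaptors and the NF-kB genes were followed in kidneys of mice with induced renal fibrosis. Members were taken by gene symbol: every symbol that starts with Tnfrsf, Tnfsf, Tnfaip or Nfkb, every Traf symbol made of Traf and a number, and Tnf, Rel, Rela, Relb, Ikbkb, Ikbkg, Chuk, Birc2, Birc3, Ripk1 and Ripk3. This gave 66 of 20416 measured genes, on 680 of 212097 probe sets that carry 1 gene symbol. They were 12 ligands, 20 receptors, 7 Traf genes, 7 genes of kinases and survival regulators, 5 NF-kB subunits, 7 genes named for the NF-kB inhibitors and 8 Tnfaip genes. No filter on low values was applied, so all 66 were tested.

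Kidneys were measured on 6 arrays, with 3 arrays of the CBAxB6-TGFbeta group (replicates 4, 5 and 6) and 3 of the B6-TGFbeta group (replicates 1, 2 and 3). CBAxB6-TGFbeta mice carry a mixed CBA and B6 background and the word KO in their labels, and B6-TGFbeta mice carry the B6 background and the word WT. No knocked-out gene is named for either group. All 6 arrays come from mice that carry TGFbeta in their labels, TGF-β1 being a cytokine that drives scarring, and no array is from mice without it. How TGF-β1 was raised, which tissue makes it and the age and sex of each animal are not stated in the sources used here. The labels say that littermates of the same age and sex were compared. A difference of background before fibrosis, a different response to TGF-β1 and whatever KO stands for therefore cannot be told apart. The comparison bears on the sensitivity of inbred strains to fibrosis, which the series title names. Nothing in the labels says whether each array is a separate animal, and the p-values measure the spread between these arrays.

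TNF superfamily ligands are membrane-bound or shed proteins that bind receptors of the TNF receptor superfamily. Receptors with a death domain can trigger cell death, and most others recruit TRAF adaptors, which bring in the ubiquitin ligases encoded by Birc2 and Birc3 and pass the signal to the IkB kinase complex. That kinase marks IkB inhibitors for destruction and frees NF-kB dimers, which switch on inflammatory genes together with their own brakes, such as Nfkbia and Tnfaip3. In kidney, both tubular cells and infiltrating leukocytes use this pathway.

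Values are log2 intensities summarised per gene, and differences are CBAxB6-TGFbeta minus B6-TGFbeta with limma's standard error. A gene passed at a Benjamini-Hochberg adjusted p under 0.05 over all genes. Array medians ran from 7.27 to 7.33 in CBAxB6-TGFbeta and from 7.32 to 7.34 in B6-TGFbeta. The proximal tubule phosphate transporter Slc34a1 stood at 10.03, 10.48 and 10.36 in CBAxB6-TGFbeta and at 12.29, 12.06 and 12.18 in B6-TGFbeta, so this kidney marker was bright on every array. B6-TGFbeta replicate 2 stood apart. It had Ucp1 of brown fat at 10.93, against 5.42 and 5.13 in the other B6-TGFbeta arrays, and Chgb of the adrenal medulla at 11.21, against 6.32 and 5.85. The summed intensity of 9 adrenal markers was 501 to 559 in CBAxB6-TGFbeta, and 1095, 6003 and 539 in B6-TGFbeta replicates 1, 2 and 3. Results are therefore also given without single arrays.

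Of the 66 members, 8 passed (12.1%), against 7.65% of all genes tested. Tnfrsf23, Tnfsf8, Birc3, Tnfaip3, Nfkbiz, Nfkb1 and Nfkbie rose in CBAxB6-TGFbeta kidneys and Tnfaip8 fell. The 7 higher members were 10.6% of the list, where 3.08% of all genes were higher, and the 1 lower member compares with 4.57% of all genes that were lower. The median difference was 0.12 over the members and 0.02 over all genes. Positive differences were measured in 50 members (75.8%, against 53.9% of all genes) and negative ones in 16. The groups did not overlap in 19 members (28.8%), against 26.8% of all genes, a share near the background. The CBAxB6-TGFbeta arrays lay above in 16 members (24.2%, against 13.5% of all genes) and below in 3 (4.55%, against 13.4%). The 58 members that did not pass had differences from -0.39 to 0.66. Counts depended on the arrays and on how they were left out. With genes summarised anew over the remaining 5 arrays, 3, 1 and 7 members passed without CBAxB6-TGFbeta replicate 4, 5 and 6, and 1, 2 and 1 without B6-TGFbeta replicate 1, 2 and 3. Of all genes, 269, 117 and 554 and then 59, 77 and 57 passed in these fits, against 1562 with all arrays. With the gene values of the 6 arrays kept, a setting added after the data were seen, 9, 6 and 10 members passed without CBAxB6-TGFbeta replicate 4, 5 and 6, and 4, 6 and 4 without B6-TGFbeta replicate 1, 2 and 3. Of all genes, 1335, 866 and 1550 and then 494, 979 and 711 passed there. The former fits are called re-summarised and the latter kept-value fits from here on. With moderated variances, 21 of the 66 members had an unadjusted p under 0.05 in limma, against 4399 of all 20416 genes. No member passed in limma without moderation of the variances, where 63 of all genes did. With B6-TGFbeta reduced to replicate 3, none passed either. That fit takes its spread from the CBAxB6-TGFbeta arrays alone and assumes the lone array varies like them, and 40 of all genes passed in it. Differences there were 1.57 for Tnfrsf23 and 1.21 for Birc3.

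**Figure D1:**
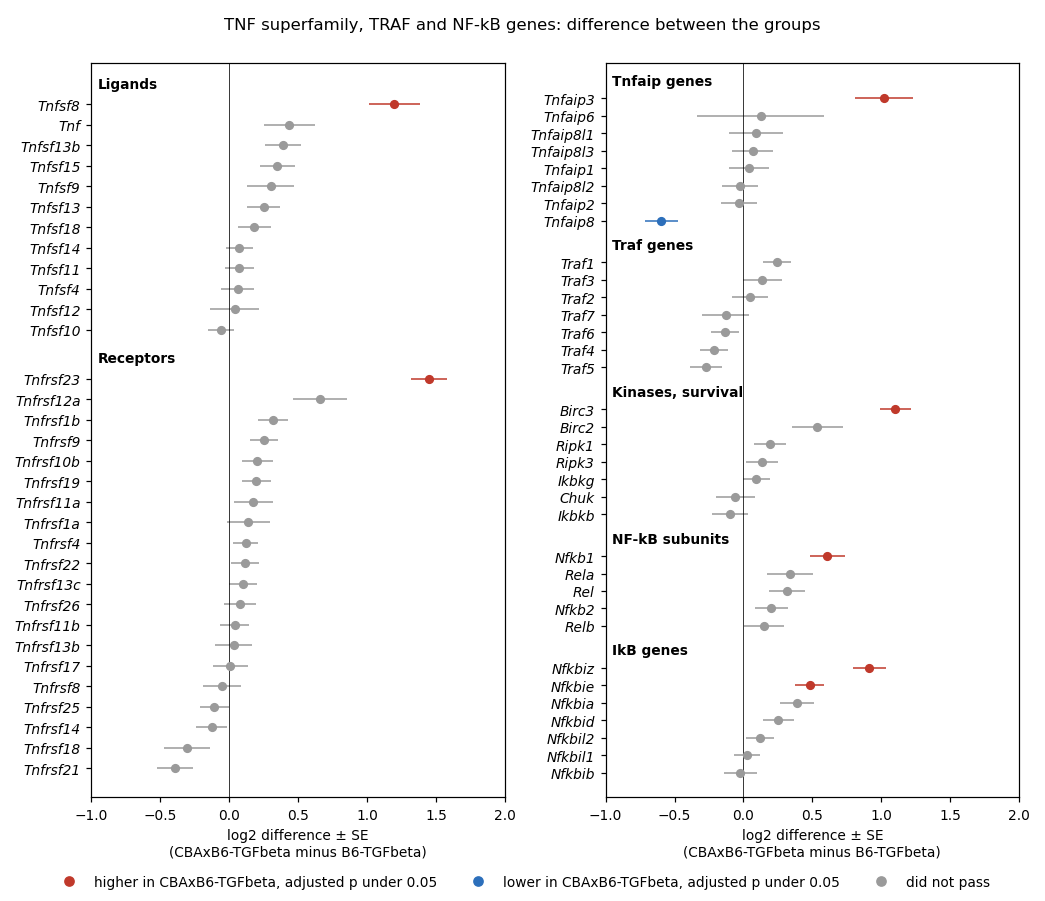
Log2 difference, CBAxB6-TGFbeta minus B6-TGFbeta, with limma's standard error as the bar, for each of the 66 members, grouped by role. The 7 members in red were higher and Tnfaip8 in blue was lower at an adjusted p under 0.05, and the grey members lay between -0.39 and 0.66.

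Sums of macrophage and neutrophil markers were higher in CBAxB6-TGFbeta, and those of T, NK, B and plasma cell markers overlapped between the groups. Of 13 measured macrophage markers, 9 rose, Mertk alone fell and 3 missed the threshold. The summed linear intensity of the 13 was 5002 to 7908 in CBAxB6-TGFbeta and 3086 to 3632 in B6-TGFbeta. For this and the following lists, the shares over all genes were 3.08% higher and 4.57% lower. Of 10 neutrophil markers, 3 were higher, with sums of 481 to 562 in CBAxB6-TGFbeta and 363 to 415 in B6-TGFbeta. Of 12 T and NK cell markers 1 was higher, with overlapping sums of 597 to 672 in CBAxB6-TGFbeta and 603 to 636 in B6-TGFbeta. None of 9 B and plasma cell markers passed in limma, with overlapping sums of 537 to 580 in CBAxB6-TGFbeta and 497 to 552 in B6-TGFbeta. An unadjusted p under 0.05 was found in 1 of these 9, against 4399 of all 20416 genes. Markers of kidney epithelium and endothelium went the other way. Of 11 proximal tubule markers 10 were lower, with sums of 9933 to 14262 in CBAxB6-TGFbeta and 27114 to 30378 in B6-TGFbeta. Of 10 markers of the loop, distal tubule and collecting duct 6 were lower (9375 to 10942 in CBAxB6-TGFbeta and 17939 to 20443 in B6-TGFbeta). Endothelial markers were lower in 4 of 8 (6865 to 7416 in CBAxB6-TGFbeta and 8820 to 9387 in B6-TGFbeta), and podocyte markers in 2 of 4. Of 10 fibroblast markers 3 were higher, with sums of 12014 to 13490 in CBAxB6-TGFbeta and 9125 to 9909 in B6-TGFbeta. No marker was at 0, because array intensities have no true zero. The part of these cell types in the results on the members was not tested. In RNA of a whole organ, fewer cells of a type and less RNA per cell cannot be told apart.

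**Figure D2:**
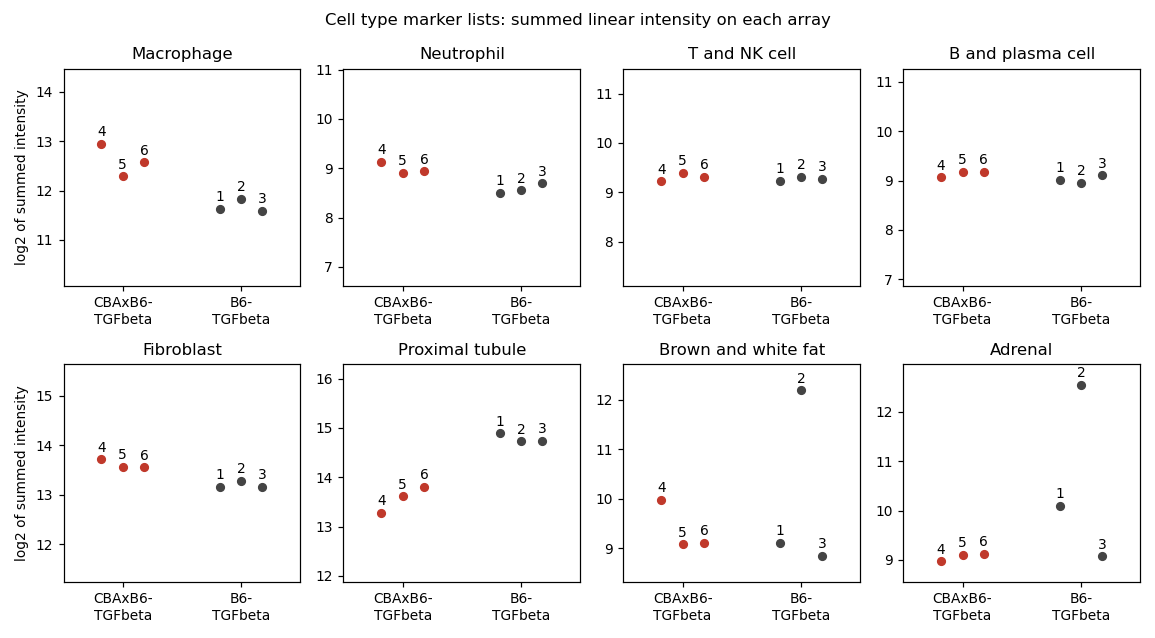
Log2 of the summed linear intensity of 8 marker lists on each array, numbered by replicate, CBAxB6-TGFbeta in red and B6-TGFbeta in grey, every axis spanning the same number of log2 units. Macrophage sums were 5002 to 7908 in CBAxB6-TGFbeta and 3086 to 3632 in B6-TGFbeta, and B6-TGFbeta replicate 2 stands high for the fat and adrenal lists.

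Among the 12 ligands, 1 rose (8.33%, against 3.08% of all genes) and 11 did not pass, and the median difference was 0.22. Tnfsf8 encodes CD30 ligand, a membrane protein of activated leukocytes. It had 6.12, 6.10 and 6.58 in CBAxB6-TGFbeta and 5.17, 4.69 and 5.34 in B6-TGFbeta. Every CBAxB6-TGFbeta array lay above every B6-TGFbeta array. These values are low, and Tnfsf8 is among the dimmest 25% of all genes here. The difference was 1.20 (SE 0.19), 2.29-fold, with an adjusted p of 0.00622 in limma. All 7 probe sets of Tnfsf8 had positive differences, but of unequal size, from 0.17 to 4.50. Sequence differences between CBA and B6 under the probes can change a signal without a change in RNA. They were not examined for this or any other gene here. The probe set with the largest difference had 8.33, 7.59 and 7.94 in CBAxB6-TGFbeta and 4.23, 3.05 and 3.06 in B6-TGFbeta, and the brightest one gave 0.77 and did not pass. With 1 array left out, Tnfsf8 passed in all 6 kept-value fits (adjusted p 0.00948 to 0.0287) and in 2 of 6 re-summarised ones, missing the threshold without CBAxB6-TGFbeta replicate 5 (0.0637) and without each of the B6-TGFbeta arrays 1, 2 and 3 (0.170, 0.0712 and 0.110). Its difference was 1.82 without the dimmer 50% of its probe sets and 0.79 with B6-TGFbeta reduced to replicate 3. Its receptor gene Tnfrsf8, which encodes CD30, had a difference of -0.05 (SE 0.14).

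Tnf, which encodes the founding cytokine of the family, made by macrophages above all, did not pass. It had 6.01, 6.24 and 6.22 in CBAxB6-TGFbeta and 5.29, 5.73 and 6.12 in B6-TGFbeta, and the groups overlapped because B6-TGFbeta replicate 3 lay above CBAxB6-TGFbeta replicate 4. The difference was 0.44 (SE 0.19, adjusted p 0.216). Of its 6 probe sets 5 were positive and the brightest was negative, at -0.28. Tnfsf10, which encodes the death ligand TRAIL, had the only negative difference of a ligand, at -0.06 (SE 0.10). Tnfsf13b, which encodes the B cell survival factor BAFF, and Tnfsf15 had differences of 0.39 (SE 0.13) and 0.35 (SE 0.13) with groups that did not overlap, and neither passed. Tnfsf12, which encodes TWEAK, rested on 1 probe set of its own (0.04, SE 0.18). A further 15 probe sets carry Tnfsf12, Tnfsf13 or both beside the joint symbol of these neighbours and were left out of the gene values. Their differences ran from -0.31 to 0.70 with a median of 0.06.

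Among the 20 receptors, 1 rose (5%, against 3.08% of all genes) and 19 did not pass, and their median was 0.11. Tnfrsf23 encodes a mouse decoy receptor that binds TRAIL and lacks a death domain. It had 8.01, 8.39 and 7.91 in CBAxB6-TGFbeta and 6.65, 6.71 and 6.59 in B6-TGFbeta. The groups lay far apart compared with the spread within them. The difference was 1.45 (SE 0.13), 2.74-fold, with an adjusted p of 0.000572 in limma, the smallest among the members. All 8 probe sets were higher, from 0.42 to 2.06, and the brightest gave 1.36 and passed. Tnfrsf23 passed in all 6 kept-value fits (adjusted p 0.000605 to 0.00621) and in 4 of 6 re-summarised ones. The exceptions were without B6-TGFbeta replicate 1 (1.38, adjusted p 0.0745) and replicate 3 (1.31, adjusted p 0.0561). Tnfrsf23 lies beside Tnfrsf22, a second decoy receptor gene of similar sequence, and Tnfrsf26 on chromosome 7, and how the probes of the array divide between such copies is not stated in the sources used here. Tnfrsf22 and Tnfrsf26 had differences of 0.12 (SE 0.10) and 0.08 (SE 0.12). The brightest of the 9 probe sets of Tnfrsf22 gave -0.63 and did not pass. The gap between the changes of Tnfrsf22 and Tnfrsf23 was -1.33 with an exact two-sided permutation p of 0.10, the smallest that 3 against 3 arrays allow. Tnfrsf10b, the mouse TRAIL receptor with a death domain, had a difference of 0.20 (SE 0.11, adjusted p 0.344).

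The receptors for TNF itself did not pass. Tnfrsf1a, which encodes the broadly expressed TNF receptor with a death domain, had 8.50, 8.21 and 7.82 in CBAxB6-TGFbeta and 8.04, 8.05 and 8.03 in B6-TGFbeta, with CBAxB6-TGFbeta arrays on both sides of the narrow B6-TGFbeta range. Tnfrsf1b, which encodes the TNF receptor found mainly on leukocytes and endothelium, had 6.98, 7.20 and 6.94 in CBAxB6-TGFbeta and 6.84, 6.68 and 6.64 in B6-TGFbeta. Its groups did not overlap, and its difference was 0.32 (SE 0.11, adjusted p 0.123), while that of Tnfrsf1a was 0.14 (SE 0.15, adjusted p 0.676). Tnfrsf12a encodes Fn14, the receptor of TWEAK, a small receptor induced in injured epithelium. It had 7.92, 7.87 and 7.22 in CBAxB6-TGFbeta and 7.03, 6.77 and 7.24 in B6-TGFbeta. CBAxB6-TGFbeta replicate 6 lay within the B6-TGFbeta range and the other 2 above it. Its difference was 0.66 (SE 0.20, adjusted p 0.0782). It passed in 1 of 6 re-summarised fits, that without CBAxB6-TGFbeta replicate 6 (0.85, adjusted p 0.0473), with adjusted p up to 0.395 in the others. On the brightest of its 4 probe sets the values were 11.24, 10.89 and 10.22 in CBAxB6-TGFbeta and 8.95, 9.59 and 9.58 in B6-TGFbeta, a difference of 1.41 that passed. Tnfrsf21, which encodes death receptor 6, had the largest negative difference of a receptor, -0.39 (SE 0.13, adjusted p 0.106), with all CBAxB6-TGFbeta arrays below all B6-TGFbeta arrays.

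None of the 7 Traf genes passed in limma, and those named here passed under none of the alternatives. An unadjusted p under 0.05 was found in 2 of the 7, against 4399 of all 20416 genes. Traf1, an adaptor that NF-kB induces in activated cells, had 6.54, 6.47 and 6.57 in CBAxB6-TGFbeta and 6.15, 6.44 and 6.26 in B6-TGFbeta, a difference of 0.24 (SE 0.10, adjusted p 0.218). Traf5 had 6.68, 6.77 and 6.58 in CBAxB6-TGFbeta and 6.96, 7.12 and 6.77 in B6-TGFbeta, a difference of -0.27 (SE 0.12, adjusted p 0.207). The groups of both genes did not overlap, by a small margin in each case. That is 28.6% of the 7 Traf genes, near the 26.8% of all genes. The other 5 Traf genes lay between -0.22 and 0.14.

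Birc3 was the only one of the 7 kinase and survival regulator genes to pass, and it rose (14.3%, against 3.08% of all genes). It encodes cIAP2, a ubiquitin ligase that TRAF proteins recruit to TNF receptors and that NF-kB induces. Birc3 had 8.89, 8.65 and 8.73 in CBAxB6-TGFbeta and 7.50, 7.74 and 7.72 in B6-TGFbeta, with no overlap. The difference was 1.10 (SE 0.11), 2.15-fold, with an adjusted p of 0.000852 in limma. All 6 probe sets were positive. In 4 of them the difference was between 1.23 and 1.52, and in the remaining 2 it was 0.04 and 0.21. Birc3 passed in all 6 kept-value fits (adjusted p 0.00190 to 0.00685). In the re-summarised fits it passed without each B6-TGFbeta array and missed the threshold without CBAxB6-TGFbeta replicate 4, 5 or 6 (adjusted p 0.0606, 0.0576 and 0.0615), with differences of 1.07 to 1.32. Its neighbour and paralogue Birc2, which encodes cIAP1, had 9.61, 8.93 and 9.45 in CBAxB6-TGFbeta and 9.01, 8.83 and 8.54 in B6-TGFbeta. These groups overlapped, and the difference was 0.54 (SE 0.18, adjusted p 0.123). The gap between the changes of Birc2 and Birc3 was -0.57 (exact permutation p 0.10). The kinase genes Chuk and Ikbkb and the scaffold gene Ikbkg, which build the IkB kinase complex, had differences of -0.06 (SE 0.14), -0.10 (SE 0.13) and 0.09 (SE 0.10). Ripk1 and Ripk3, kinases of inflammatory and necroptotic cell death, had 0.19 (SE 0.12) and 0.14 (SE 0.11).

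All 5 NF-kB subunit genes had positive differences, as did 53.9% of all genes. Of the 5, 1 passed (20%, against 3.08% of all genes that were higher) and 4 did not. Nfkb1 encodes p105, the precursor of the DNA-binding subunit p50. It had 9.31, 9.22 and 8.87 in CBAxB6-TGFbeta and 8.51, 8.58 and 8.47 in B6-TGFbeta, all 3 CBAxB6-TGFbeta arrays above. The difference was 0.61 (SE 0.13), 1.53-fold, with an adjusted p of 0.0207 in limma, and it was positive in 26 of 28 probe sets. Nfkb1 passed in 3 of 6 kept-value fits, without CBAxB6-TGFbeta replicate 4 (adjusted p 0.0473) or 6 (0.00440) and without B6-TGFbeta replicate 2 (0.0471), and missed the threshold in the others (0.0775 to 0.0879). It passed in 1 of 6 re-summarised fits, that without CBAxB6-TGFbeta replicate 6 (0.66, adjusted p 0.0297). In these, without CBAxB6-TGFbeta replicate 4 or 5 the difference was 0.40 and 0.42 (adjusted p 0.255 and 0.326), and without B6-TGFbeta replicate 1, 2 or 3 adjusted p was 0.162, 0.177 and 0.175. Rela, which encodes the transactivating subunit p65, had 8.57, 8.40 and 7.87 in CBAxB6-TGFbeta and 7.84, 8.02 and 7.97 in B6-TGFbeta. Replicates 4 and 5 lay above the B6-TGFbeta arrays and replicate 6 within their range, and the difference was 0.34 (SE 0.17, adjusted p 0.284). Rel, the lymphoid and myeloid subunit, had 7.97, 8.0 and 7.93 in CBAxB6-TGFbeta and 7.74, 7.84 and 7.37 in B6-TGFbeta, a difference of 0.32 (SE 0.13, adjusted p 0.194) with groups that did not overlap. The genes of the alternative pathway, Nfkb2 and Relb, had 0.20 (SE 0.12) and 0.15 (SE 0.14).

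**Figure D3:**
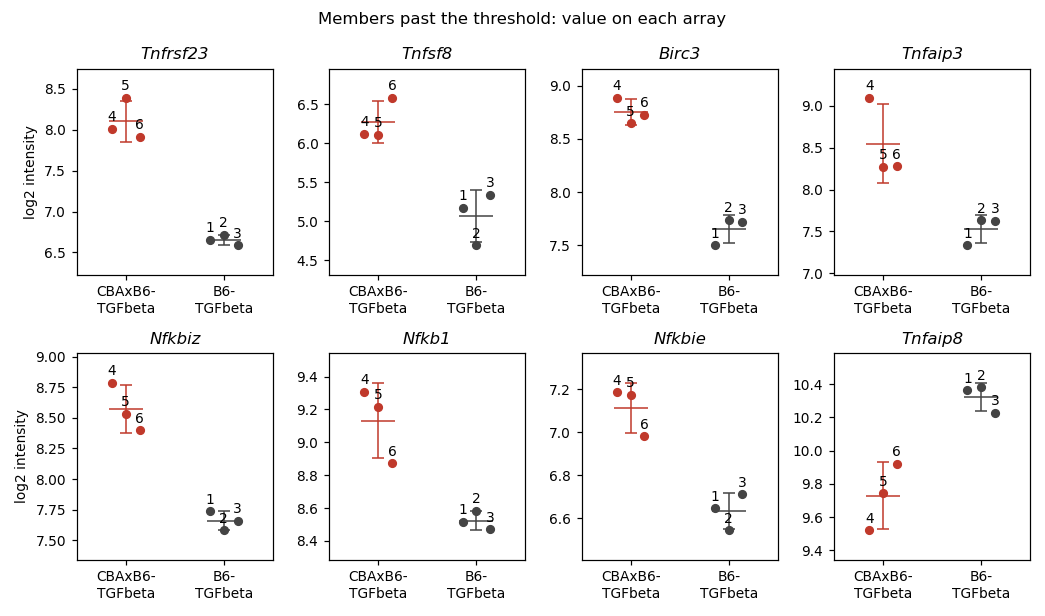
Log2 intensity on each array, numbered by replicate, for the 8 members past the threshold, CBAxB6-TGFbeta at the left and B6-TGFbeta at the right. The dash and bar give mean and SD over 3 arrays. In each panel the groups do not overlap, and Tnfaip8 is the only gene with CBAxB6-TGFbeta below.

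Of the 7 genes named for NF-kB inhibitors, 2 rose (28.6%, against 3.08% of all genes) and 5 did not pass, and their median was 0.25. Nfkbiz encodes IkB-zeta, an inducible nuclear protein that binds p50 and is needed for a set of late inflammatory genes. It had 8.79, 8.53 and 8.40 in CBAxB6-TGFbeta and 7.74, 7.58 and 7.66 in B6-TGFbeta, with no overlap. The difference was 0.91 (SE 0.12), 1.88-fold, with an adjusted p of 0.00267 in limma. It was positive in 14 of 18 probe sets, from -0.44 to 2.18 over all of them. Nfkbiz passed in all 6 kept-value fits (adjusted p 0.00228 to 0.0189) and in 2 of 6 re-summarised ones, which gave differences of 0.65 to 0.89. It missed the threshold there without CBAxB6-TGFbeta replicate 5 (0.115) and without B6-TGFbeta array 1, 2 or 3 (0.105, 0.0867 and 0.0864).

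Nfkbie encodes IkB-epsilon, a cytoplasmic inhibitor. It had 7.19, 7.17 and 6.98 in CBAxB6-TGFbeta and 6.65, 6.54 and 6.71 in B6-TGFbeta, a difference of 0.48 (SE 0.10), 1.39-fold, with an adjusted p of 0.0244 in limma. The groups did not overlap, but the 8 probe sets ranged from -0.05 to 1.80 and the brightest gave 0.24 and did not pass. The largest probe set had 7.05, 7.00 and 6.39 in CBAxB6-TGFbeta and 4.73, 5.28 and 5.03 in B6-TGFbeta. Nfkbie passed in 1 of 6 fits of each kind, that without CBAxB6-TGFbeta replicate 6 (adjusted p 0.0168 kept-value and 0.0312 re-summarised). The other kept-value fits gave 0.0571 to 0.0942, and among the re-summarised ones it did not pass without B6-TGFbeta array 1, 2 or 3 (0.239, 0.186 and 0.0941) nor without CBAxB6-TGFbeta array 4 or 5 (0.0817 and 0.126). With B6-TGFbeta reduced to replicate 3 its difference was 0.22.

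Nfkbia, which encodes the main inhibitor IkB-alpha, had 7.996, 7.56 and 7.73 in CBAxB6-TGFbeta and 7.42, 7.28 and 7.43 in B6-TGFbeta. The groups did not overlap and the difference was 0.39 (SE 0.12, adjusted p 0.101). It passed in 3 of 23 alternatives: with the brightest of its 7 probe sets (0.73), with their mean (0.46) and without the dimmer 50% of them (0.66). Nfkbia missed the threshold in every fit with 1 array left out. Adjusted p was 0.176 to 0.403 in the re-summarised fits and 0.0766 to 0.258 in the kept-value fits. Nfkbib, which encodes IkB-beta, had the only negative difference here, -0.02 (SE 0.12), with 7.84, 7.60 and 7.49 in CBAxB6-TGFbeta and 7.54, 7.77 and 7.68 in B6-TGFbeta. Nfkbid, another nuclear inhibitor gene, had 0.25 (SE 0.11, adjusted p 0.231). Nfkbil1 and Nfkbil2 had 0.03 (SE 0.09) and 0.12 (SE 0.10). Nfkbil2 is now called Tonsl and is known for DNA repair.

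**Figure D4:**
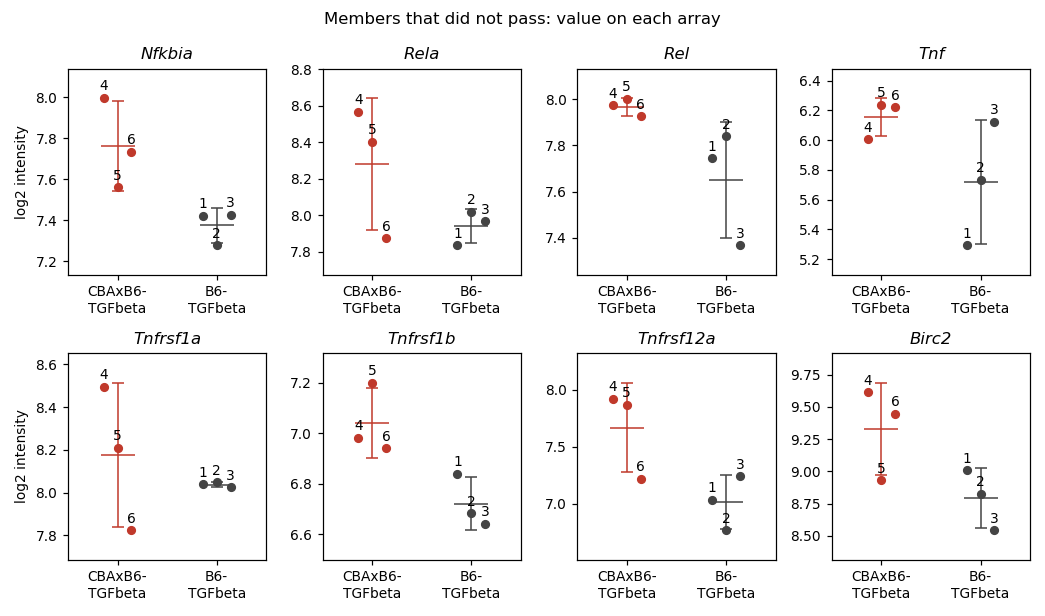
Log2 intensity on each array, numbered by replicate, for 8 members that did not pass, CBAxB6-TGFbeta at the left and B6-TGFbeta at the right, with mean and SD over 3 arrays. The groups overlap for Tnf, Tnfrsf1a, Tnfrsf12a, Rela and Birc2, and do not overlap for Nfkbia, Rel and Tnfrsf1b.

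Of the 8 Tnfaip genes, Tnfaip3 rose, Tnfaip8 fell and 6 did not pass. The share that passed was 25%, against 7.65% of all genes. Tnfaip3 encodes A20, a ubiquitin-editing enzyme that shuts down signals from TNF receptors. It had 9.10, 8.27 and 8.28 in CBAxB6-TGFbeta and 7.33, 7.63 and 7.62 in B6-TGFbeta, with no overlap and with CBAxB6-TGFbeta replicate 4 above the other 2. The difference was 1.02 (SE 0.21), 2.03-fold, with an adjusted p of 0.0210 in limma. It was positive in 10 of 11 probe sets, and the brightest gave 1.79 and passed. Tnfaip3 passed in 4 of 6 kept-value fits and missed the threshold without B6-TGFbeta replicate 1 (adjusted p 0.0990) or 3 (0.0702). It missed it in all 6 re-summarised fits, with adjusted p of 0.0533, 0.133 and 0.0995 without CBAxB6-TGFbeta replicate 4, 5 and 6 and 0.246, 0.188 and 0.222 without B6-TGFbeta replicate 1, 2 and 3, and differences of 0.78 to 1.18.

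Tnfaip8, which encodes a lipid-binding protein that restrains apoptosis, had 9.52, 9.74 and 9.92 in CBAxB6-TGFbeta and 10.36, 10.38 and 10.23 in B6-TGFbeta. All CBAxB6-TGFbeta arrays lay below. The difference was -0.59 (SE 0.12), 0.662-fold, with an adjusted p of 0.0191 in limma, and all 5 probe sets were negative, from -0.78 to -0.54. Tnfaip8 passed in 2 of 6 kept-value fits, without CBAxB6-TGFbeta replicate 4 (adjusted p 0.0393) or 6 (0.00960), with 0.0511 to 0.0890 in the others. Re-summarised, it passed without CBAxB6-TGFbeta replicate 6 (0.0467) but not without B6-TGFbeta array 1, 2 or 3 (0.181, 0.157 and 0.132) nor without CBAxB6-TGFbeta array 4 or 5 (0.0751 and 0.130). Its relatives Tnfaip8l1, Tnfaip8l2 and Tnfaip8l3 had 0.09 (SE 0.20), -0.02 (SE 0.13) and 0.07 (SE 0.15). Tnfaip6, which encodes the hyaluronan-binding protein TSG-6, varied most among the arrays. It had 5.69, 6.82 and 6.12 in CBAxB6-TGFbeta and 5.41, 7.29 and 5.56 in B6-TGFbeta, where the highest value is that of replicate 2, and a difference of 0.13 (SE 0.46). Tnfaip2 had -0.03 (SE 0.13).

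**Figure D5:**
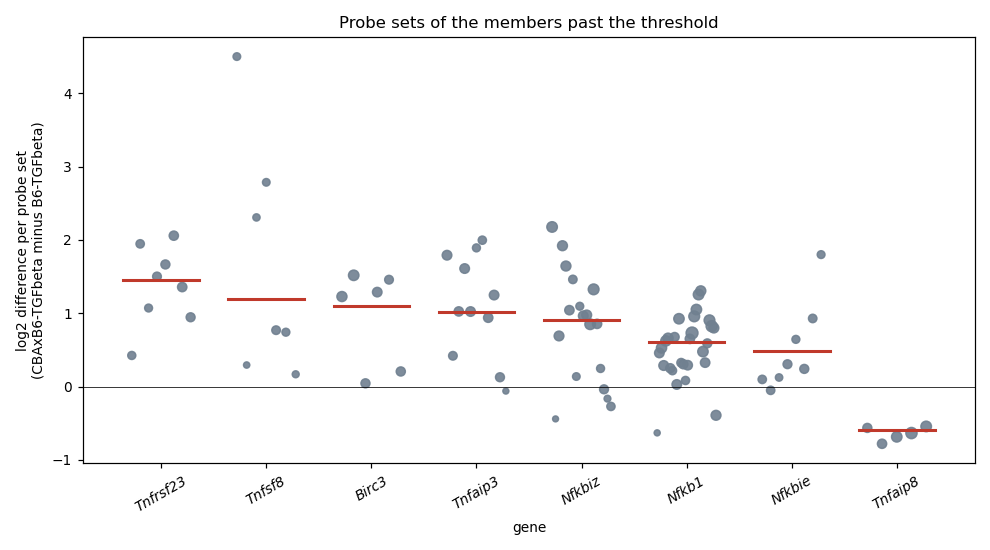
Log2 difference of each probe set, CBAxB6-TGFbeta minus B6-TGFbeta, for the 8 members past the threshold. Larger points are brighter probe sets and the red line is the difference of the gene. The probe sets of Tnfaip8 lie close together, from -0.78 to -0.54, and those of Tnfsf8 range from 0.17 to 4.50.

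NF-kB binds a decameric sequence, the kappaB motif, which was searched for on both strands in windows of 300 bases, from 250 before to 50 after each start site in the RefSeq table (GRCm38.p6). Of 53 members with a window, 10 held at least 1 match (18.9%), against 5.14% of 27025 genes of all kinds and 5.53% of 17492 protein-coding genes. The 10 were Nfkb2, Nfkbia, Nfkbid, Nfkbie, Rel, Tnfaip3, Tnfaip8l1, Tnfrsf8, Tnfrsf9 and Traf3, of which Tnfaip3 and Nfkbie rose and the others did not pass. Of the 8 members that passed, 5 had a window. The windows of Tnfaip3 and Nfkbie are printed because these are the passing members with a match. They are read 5′ to 3′ on the gene's strand with the matches in capitals. The Tnfaip3 window lies at chr10:19015361-19015660 on the minus strand, with matches that begin 125 and 12 bases before the start site, and the Nfkbie window at chr17:45555450-45555749 on the plus strand, with 1 match that begins 106 bases before it.
Tnfaip3: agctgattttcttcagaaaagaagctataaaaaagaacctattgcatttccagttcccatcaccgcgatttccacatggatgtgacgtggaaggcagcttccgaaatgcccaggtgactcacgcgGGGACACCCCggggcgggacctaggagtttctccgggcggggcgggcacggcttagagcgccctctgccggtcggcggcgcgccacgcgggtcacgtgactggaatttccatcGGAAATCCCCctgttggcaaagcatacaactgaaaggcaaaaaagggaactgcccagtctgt
Nfkbie: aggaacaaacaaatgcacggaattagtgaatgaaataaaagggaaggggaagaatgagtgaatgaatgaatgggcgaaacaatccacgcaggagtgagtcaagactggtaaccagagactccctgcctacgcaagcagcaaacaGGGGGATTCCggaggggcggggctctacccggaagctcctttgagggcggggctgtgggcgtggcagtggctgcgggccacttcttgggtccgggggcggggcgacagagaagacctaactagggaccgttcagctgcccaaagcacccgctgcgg
The Nfkbia window, looked at after its values were seen, held the match GGAAATTCCC 29 bases before the start site. A match describes the letters only, and its absence from a window says nothing of a factor.

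Several members are neighbours in the genome, with no protein-coding gene between them in the RefSeq table. Beside the pairs above, Tnfsf15 and Tnfsf8 on chromosome 4 had differences of 0.35 and 1.20, and the gap between these changes was -0.85 (exact two-sided permutation p 0.10). Tnfrsf4 and Tnfrsf18, also on chromosome 4, had 0.12 and -0.31 (gap 0.43, exact permutation p 0.10). Of the 8 neighbouring pairs, 4 reached this smallest possible p. In the others the exact permutation p was 0.2 (Tnfrsf1b and Tnfrsf8), 0.4 (Tnfsf4 and Tnfsf18), 0.6 (Tnfsf13 and Tnfsf12) and 0.9 (Tnfrsf26 and Tnfrsf22). The share among other neighbouring genes was not counted. Among single genes, 26.8% of all had groups that did not overlap, which is another measure than the gap of a pair. Tnfrsf23, Birc3 and Tnfsf8, each in 1 of the 4 pairs with the smallest p, had passed by themselves. No pair could pass a threshold of 0.05 in this design, and the pairs were chosen after their values were seen, so these values are a description.

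Genes around the members were read from lists that were written with earlier results on some of them known. Of 15 genes of the TNF superfamily with other names, among them Fas, Cd40, Lta and Ltbr, none passed in limma. Of all genes, 7.65% did. An unadjusted p under 0.05 was found in 4399 of all 20416 genes and in 2 of these 15. They were Cd27, a receptor of lymphocytes, with -0.30 (SE 0.10, adjusted p 0.0988), and Eda, which encodes ectodysplasin, with -0.25 (SE 0.10, adjusted p 0.172). Cd27 passed on its brightest probe set. The median of this list was 0.01.

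Of 45 measured adaptors and regulators of the pathway, 3 rose, 1 fell and 41 missed the threshold. The share that passed, 8.89%, is near the 7.65% of all genes. The list had a median of 0.09. Bcl3, which encodes a nuclear IkB protein that binds p50 dimers, averaged 7.80 ± 0.34 in CBAxB6-TGFbeta and 7.12 ± 0.086 in B6-TGFbeta (SD, n = 3 each), a difference of 0.69 (SE 0.16, adjusted p 0.0326 in limma). Irak3, which encodes a brake on Toll-like receptor signals in macrophages, rose by 0.82 (SE 0.20, adjusted p 0.0376), and Tnip3, which encodes a partner of A20, by 0.60 (SE 0.15, adjusted p 0.0416), both in limma. Mavs, the mitochondrial adaptor of RNA sensing, was lower, with a difference of -0.69 (SE 0.12, adjusted p 0.00979 in limma). With all arrays, 16 of the 45 had an unadjusted p under 0.05, against 4399 of all 20416 genes. In the re-summarised fits without any B6-TGFbeta array or without CBAxB6-TGFbeta replicate 4 or 5, none of the 45 passed in limma. Without CBAxB6-TGFbeta replicate 6, 2 passed. The kept-value fits gave 0 to 4.

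Of 45 measured genes known as NF-kB targets, 14 rose (31.1%, against 3.08% of all genes), 1 fell and 30 missed the threshold. Their median was 0.27. The lists share genes. Bcl3, Cflar and Xiap are also among the adaptors and regulators, so the rise of Bcl3 counts in both lists. Lta, Ltb and Cd40 are also among the TNF superfamily genes with other names. Lcn2, which encodes the siderophore-binding protein NGAL released by injured tubules, had 10.33 ± 0.45 in CBAxB6-TGFbeta and 8.17 ± 0.15 in B6-TGFbeta (SD, n = 3 each), a difference of 2.17 (SE 0.20, adjusted p 0.000635 in limma). The others with the smallest p were the adhesion molecule Vcam1 (1.94, SE 0.11), C3 of complement (3.28, SE 0.25) and the chemokine Ccl2 (2.51, SE 0.27). The lower one was Sod2, the mitochondrial superoxide dismutase (-0.63, SE 0.12, adjusted p 0.0165 in limma), named after its value was seen. Neither the direction of this list nor its share of higher genes is independent evidence, since several of its genes were known to be higher here when it was written. Earlier results were known for Ccl2, Ccl5, Il6, Vcam1, C3 and Lcn2, which include all the genes with the smallest p named above. Of these 45 genes, 3, 2 and 2 passed without B6-TGFbeta replicate 1, 2 and 3, and 5, 3 and 9 without CBAxB6-TGFbeta replicate 4, 5 and 6, in the re-summarised fits, and 9 to 14 in the kept-value fits.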

How the data were processed

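The deposited table holds log2 intensities of exon-level probe sets on 6 Affymetrix mouse gene arrays, made by the authors. The submitters' processing notes name RMA and Partek. Their versions and settings, and the build behind the annotation, are not stated in the sources used here. Of 241576 rows, 212097 carried 1 gene symbol in the platform annotation and gave 20416 genes by median polish (Tukey) over each gene's rows. The 4475 rows with several symbols and the 25004 with none were left out. Differences were fitted with limma (version 3.58.1, R 4.3.3) over all 6 arrays with 1 group term and moderated variances, and two-sided p-values received a Benjamini-Hochberg adjustment across all genes, threshold 0.05. The script was tested on simulated data. An exact permutation test of 3 against 3 arrays cannot go below 0.1. The number of arrays limits the precision. Of the 66 member symbols, 65 are current in RefSeq (GRCm38.p6).

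Members, lists and tests were chosen with earlier results of these data known. The text names every member that passed; Tnf, Rela, Tnfrsf1a and Tnfrsf1b; the largest difference in each direction per role; and the genes with the smallest p in the other lists, 4 where any passed and 2 otherwise. The other members named, and the neighbouring pairs, were chosen after their values were seen. Alternatives covered normalization, gene summary, dim probe sets and genes, variance moderation, array weights and single arrays left out.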

Additional observations from a re-analysis of the deposited data

How the results depend on the processing

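All 8 members that passed kept their direction under every alternative tried. Over those alternatives they stayed past the threshold 114 times and missed it 69 times. The 15 other members that the naming rule picks kept their side of the threshold and their direction 305 times, newly passed 14 times and changed sign 26 times. Of all genes, 1562 passed (628 higher and 934 lower). When each gene was its brightest probe set, 617 passed (335 higher and 282 lower), with median centring 752 were higher and 805 lower, without moderation of the variances 63 passed, and with B6-TGFbeta reduced to replicate 3, 40 passed (25 higher and 15 lower). Without the dimmest 25% of genes, Tnfsf8 was not tested. The 7 higher members became 11 without the dimmer 50% of probe sets. Both without moderation and with replicate 3 alone, 0 members were higher and 0 lower. On the brightest probe set 0 were lower, and with array weights 2. Of the adaptors and regulators, where 4 passed, 7 passed with the mean of probe sets, 7 without the dimmer 50%, 0 without moderation and 0 with replicate 3 alone. Of the NF-kB targets, where 15 passed, 8 passed on the brightest probe set, 1 without moderation and 2 with replicate 3 alone, and 1 other TNF superfamily gene passed on the brightest probe set. The causes were not tested. The fit without moderation changes only the variance estimate, and the fit with replicate 3 alone uses 4 arrays.

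Leaving out 1 array at a time and summarising the genes anew gave 57 to 554 genes in all, 1 to 6 members higher, 0 to 1 lower, 0 to 2 adaptors and regulators, and 2 to 9 targets. Keeping the gene values of the 6 arrays, an alternative chosen after seeing the data, gave 494 to 1550 genes, 4 to 9 members higher, 0 to 2 lower, 0 to 4 adaptors and regulators, and 9 to 14 targets. No other TNF superfamily gene passed in limma in either. With all 6 arrays, 2 of these 15 genes had an unadjusted p under 0.05, against 4399 of all 20416 genes.

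Signs turned only in members that did not pass. Nfkbib gave 0.0021 with a second quantile normalization, 0.0044 with median centring and 0.18 on the brightest probe set. Tnf gave -0.28 on the brightest probe set, and Tnfsf10 gave 0.019 with the mean of probe sets, 0.044 without the dimmer 50% and 0.027 with replicate 3 alone. Over the fits that left out 1 array, differences ran from -0.12 to 0.12 for Nfkbib, from -0.24 to 0.74 for Tnfaip6, from -0.17 to 0.068 for Tnfaip2, from -0.21 to 0.012 for Ikbkb and from -0.020 to 0.31 for Tnfrsf1a. No paired analysis was possible because the groups share no replicate numbers.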

Other observations

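The CBAxB6-TGFbeta arrays differed among themselves in these genes. Replicate 6 was the lowest of its group in 34 of 66 members (51.5%), against 37.8% of all genes, and replicate 4 was the highest in 31 (47.0%), against 31.9% of all genes. The macrophage sum was highest in replicate 4, at 7908, while replicates 5 and 6 had 5002 and 6092. The part of that difference in the order of the members was not tested.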
